A study of Mus musculus with 10 samples.

Results

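Levels of 10 Bcl2 family genes were followed in the embryonic mouse cortex, in control and U11 mutant tissue. The members were given by symbol, as family genes that are not among the core targets of the transcription factor p53, and all 10 were found among the 38803 symbols of the files. They comprise 4 anti-apoptotic genes (Bcl2, Bcl2l1, Bcl2l2 and Mcl1), 1 pore-forming effector (Bak1) and 5 BH3-only genes (Bcl2l11, Bid, Bad, Bmf and Hrk). Of these, 9 reached 1 FPKM (fragments scaled to transcript length and library size) in at least 5 libraries and entered the test across 13522 genes, and Hrk did not.

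RNA sequencing of total RNA, depleted of ribosomal RNA, was done on the dorsal telencephalon, the part of the forebrain that forms the cortex, at embryonic day 12. The 5 control libraries were Rnu11WT/Flx::Emx1-cre+/- and the 5 mutant libraries Rnu11Flx/Flx::Emx1-Cre+/-, all of mixed C57/Bl6 and 129 SvJ strain. Rnu11 encodes the U11 small nuclear RNA of the minor spliceosome, and Emx1 directs Cre to progenitors of the dorsal telencephalon and their progeny. The comparison asks how transcripts differ when both copies of Rnu11 can be deleted rather than 1. Since the controls also carried Cre and 1 floxed copy, no library represents fully intact Rnu11. Vessels, blood and microglia do not arise from cells with Emx1-Cre and are not targeted in either group.

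Bcl2 family proteins decide whether the outer membrane of the mitochondrion is opened, the step that releases cytochrome c and starts the intrinsic pathway of apoptosis. The effectors Bak1 and Bax form the pore, the anti-apoptotic members bind and restrain them, and BH3-only proteins answer stress signals by occupying the anti-apoptotic members or by activating the effectors directly. In the developing cortex Bcl2l1 and Mcl1 are known for keeping young neurons and progenitors alive.

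A short helix, the BH3 segment, is what the members share beyond their name, and its coding bases are shown for 6 members that cover each role and each variant of the core. The pattern searched in the translated coding sequence was leucine or methionine, then any 3 residues, then glycine, alanine or serine, and then aspartate. It occurred exactly once in each of the 10 members, although 39.4% of 20335 mouse protein-coding genes hold it at least once, so the pattern alone does not mark the family. Capitals mark the codon of the first residue and the codon pair that ends the pattern. The bases are from GENCODE M21 transcripts (GRCm38), 5′ to 3′ on the coding strand, each 42 bases long and inside 1 coding exon.
Bcl2l1, chr2:152829694-152829735, minus strand: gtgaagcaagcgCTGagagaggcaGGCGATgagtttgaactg
Bcl2l2, chr14:54884505-54884546, plus strand: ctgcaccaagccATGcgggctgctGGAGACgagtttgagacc
Bak1, chr17:27022528-27022569, minus strand: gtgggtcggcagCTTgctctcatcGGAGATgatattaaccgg
Bcl2l11, chr2:128147138-128147179, plus strand: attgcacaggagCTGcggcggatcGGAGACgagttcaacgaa
Bad, chr19:6950780-6950821, plus strand: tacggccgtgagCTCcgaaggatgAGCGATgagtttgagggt
Bmf, chr2:118545097-118545138, minus strand: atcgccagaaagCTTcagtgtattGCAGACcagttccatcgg

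In Bcl2l2 the pattern starts with methionine, at codon 46 of 193, and in the other 9 members with leucine. Bad has serine, at codon 155 of 204, and Bmf alanine, at codon 228 of 271, where the other 8 members have glycine. Over their whole aligned length Bcl2 and Bcl2l1 were identical at 47.9% of positions, Bcl2l1 and Bcl2l2 at 51.6% and Bcl2 and Bcl2l2 at 47.9%. Mcl1 was more distant, at 31.0 to 33.0% identity with each of the other 3 anti-apoptotic members, and Bak1 was at 24.7% with Bax.

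The libraries differed in Rnu11, in Rnu12 and in depth. Rnu11 itself averaged 2283 ± 352.5 FPKM in controls against 892 ± 458 FPKM in mutants (SD, n = 5 each), with no overlap, and a two-sided exact permutation test gave p = 0.00794, the lowest value reachable with 5 libraries a group. Control 5, mutant 4 and mutant 5, here called the second library set, held the U12 RNA Rnu12 at 487 to 688 FPKM against 5.91 to 33.8 FPKM in the other 7 libraries, the first set. The mutants of the second set also kept more Rnu11, at 1344 and 1421 FPKM, than those of the first, at 473 to 712 FPKM. Control 4 was the shallowest library, at a rough estimate of 9580000 fragments where the others lay between 11700000 and 21300000, and it held the most ventral telencephalon marker RNA. The median log2 difference of all tested genes was 0.11 in favour of mutants and 0.0068 after the libraries were rescaled to a common median ratio. The labels do not say whether each library came from its own embryo, so the p-values measure the spread between these libraries. All 10 radial glial markers and all 5 intermediate progenitor markers examined, among them Emx1 and Eomes, reached 1 FPKM in each library.

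No member passed the test between genotypes. With limma on log2(FPKM + 1) and Benjamini-Hochberg adjustment over all tested genes, 0 of 9 members had an adjusted p under 0.05, where 21 of all 13522 genes, or 0.155%, did. With the library set as a second term the count was again 0 of 9, against 0.547% of all genes. Bmf was the single member with an unadjusted p under 0.05, in a comparison where 7.69% of all genes were higher in mutants at that level. The 95% intervals of the 9 log2 differences reached from -0.30 at the lowest to 0.56 at the highest, so for each tested member a change of 1.5-fold or more on this scale lay outside its interval. That scale compresses low genes: with a pseudocount of 0.1 instead of 1, the intervals of 7 of 9 members stayed within 1.5-fold, and those of Bcl2l2 (up to 0.72) and Bmf (up to 0.61) did not. In the first library set alone, with a pseudocount of 1, 8 of 9 intervals stayed within 1.5-fold and that of Bmf (up to 0.62) did not. The median difference of the 9 members was 0.089, against 0.11 for all tested genes, with 4 members above that median and 5 below. Bulk RNA cannot separate a change in the RNA of each cell from a change in the number of cells that hold it.

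**Figure D1:**
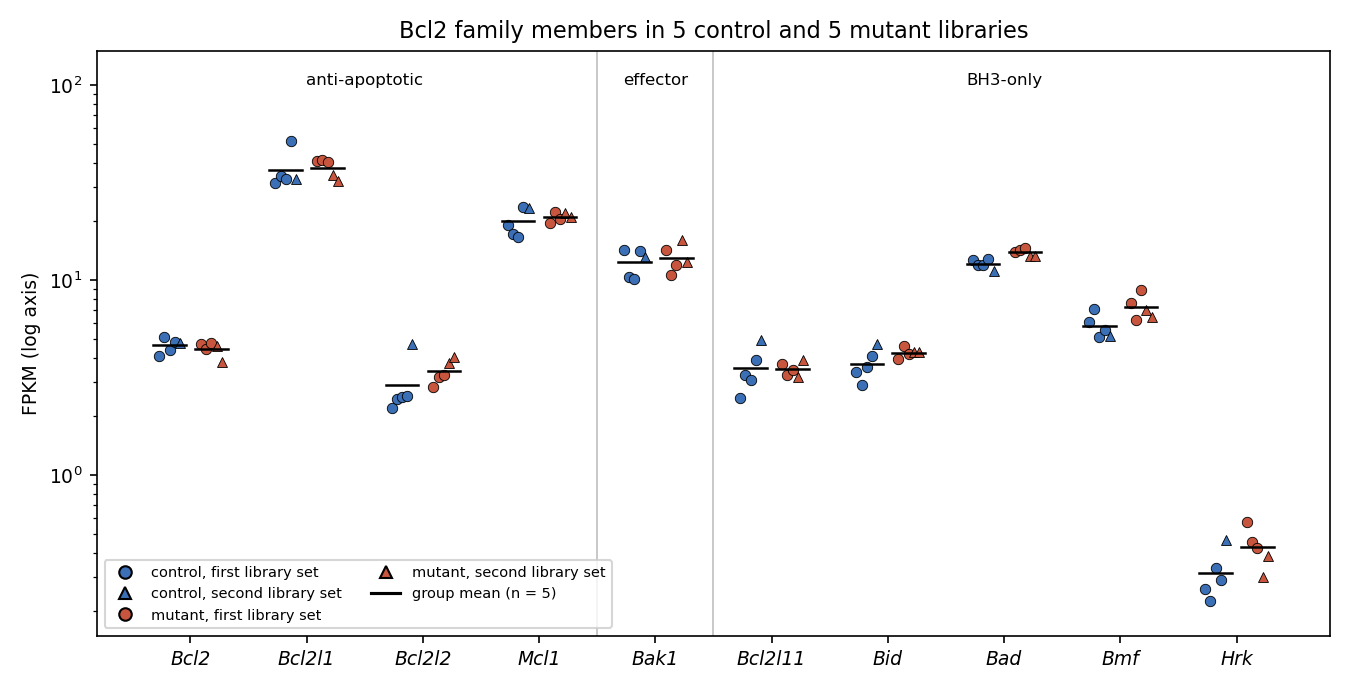
FPKM on a log axis for the 10 members, 1 point per library, with lines at the means of 5 control and 5 mutant libraries and triangles for the second library set. Bcl2l1 and Mcl1 are the highest members in both groups, Hrk lies below 1 FPKM in each library, and the groups of Bad, at 11.2 to 12.8 and 13.2 to 14.6 FPKM, are the only ones that do not overlap.

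The order of the members, which FPKM allows to be compared because it is per length, was nearly the same in both genotypes. In controls the mean levels ran from Bcl2l1 at 36.7 FPKM through Mcl1 at 20.01, Bak1 at 12.3, Bad at 12.1, Bmf at 5.82, Bcl2 at 4.63, Bid at 3.72, Bcl2l11 at 3.52 and Bcl2l2 at 2.89 to Hrk at 0.315 FPKM. Bcl2l1 lay above Mcl1 and Mcl1 above Bak1 in all 5 controls, with ranges apart. Bak1 exceeded Bad in 3 of 5 controls and Bid exceeded Bcl2l11 in 3 of 5, so these neighbours did not differ beyond their spread. In mutants Bad, at 13.9 FPKM, stood above Bak1, at 13.04 FPKM, in 3 of 5 libraries, and no other pair changed places. The control mean of Bcl2l1 exceeded that of 85.2% of all tested genes, and that of Bcl2l2 exceeded 21.7%.

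Among the anti-apoptotic members Bcl2l1, which encodes Bcl-xL, had the highest FPKM. The gene (ENSMUSG00000007659.18) lies on chromosome 2 from 152780668 to 152831728. Controls held 31.4, 34.3, 33.1, 51.6 and 33.0 FPKM and mutants 40.8, 41.1, 40.3, 34.5 and 32.4 FPKM. Control 4 stood above all other libraries, mutants 1 to 4 lay above the other 4 controls, and mutant 5 lay among them. The means were 36.7 ± 8.40 and 37.8 ± 4.07 FPKM (SD, n = 5), a log2 difference of 0.059 (95% interval -0.25 to 0.37; limma, adjusted p = 0.917). Without control 4 it was 0.19 (adjusted p = 0.502). Control 4 also had the lowest summed erythroid markers, 3474 FPKM against 4506 to 8972 in the other libraries, and the highest ventral markers, 45.3 FPKM against 1.35 to 15.03, and the part of either in this level was not tested. The files give 1 value per gene, so the long and short splice forms of Bcl2l1, which act in opposite directions, are not separated.

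Mcl1, a short-lived protein that binds Bak1, gave the steadiest mutant values of the anti-apoptotic genes. The gene (ENSMUSG00000038612.16) lies on chromosome 3 from 95658788 to 95663176. Its levels were 19.1, 17.1, 16.6, 23.7 and 23.5 FPKM in controls and 19.6, 22.2, 20.6, 22.2 and 20.98 FPKM in mutants. All mutants lay within the range of the controls, of which 3 were lower than any mutant and 2 higher. The log2 difference was 0.089 (95% interval -0.17 to 0.35; limma, adjusted p = 0.839).

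Bcl2, the founding member (ENSMUSG00000057329.7, chromosome 1, 106538178 to 106714274), was the only tested member with a negative difference. Controls held 4.06, 5.12, 4.38, 4.83 and 4.78 FPKM and mutants 4.71, 4.43, 4.74, 4.56 and 3.80 FPKM. The groups overlapped in part: controls 2, 4 and 5 lay above all mutants, and mutant 5 was the lowest library. The means were 4.63 ± 0.418 and 4.45 ± 0.383 FPKM (SD, n = 5), a log2 difference of -0.048 (95% interval -0.27 to 0.18; adjusted p = 0.909). An antisense RNA that shares 558 exonic bases with Bcl2, D630008O14Rik, lay at or below 0.476 FPKM in all libraries.

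Bcl2l2, which encodes Bcl-w (ENSMUSG00000089682.10, chromosome 14, 54883377 to 54888234), was separated by library set and not by genotype. Its controls lay at 2.21, 2.45, 2.52, 2.55 and 4.72 FPKM and its mutants at 2.83, 3.19, 3.24, 3.74 and 4.05 FPKM. The second set (3.74 to 4.72 FPKM) lay wholly above the first (2.21 to 3.24 FPKM), which held for no other tested member and for 15.5% of all tested genes. Within the first set the 3 mutants, at 2.83 to 3.24 FPKM, stood above the 4 controls, at 2.21 to 2.55 FPKM, as did 16.7% of all tested genes in that set, while in the second set both mutants stood below the control. Over all 10 libraries the log2 difference was 0.21 (95% interval -0.14 to 0.56; limma, adjusted p = 0.722). It was 0.12 once the library set entered as a second term (adjusted p = 0.692), 0.25 in the first set alone (adjusted p = 0.290) and 0.36 without control 5 (adjusted p = 0.137), the smallest adjusted p of any member in any fit. Gm20521, a gene model on the same strand that shares 594 exonic bases with Bcl2l2, lay at or below 0.770 FPKM.

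**Figure D2:**
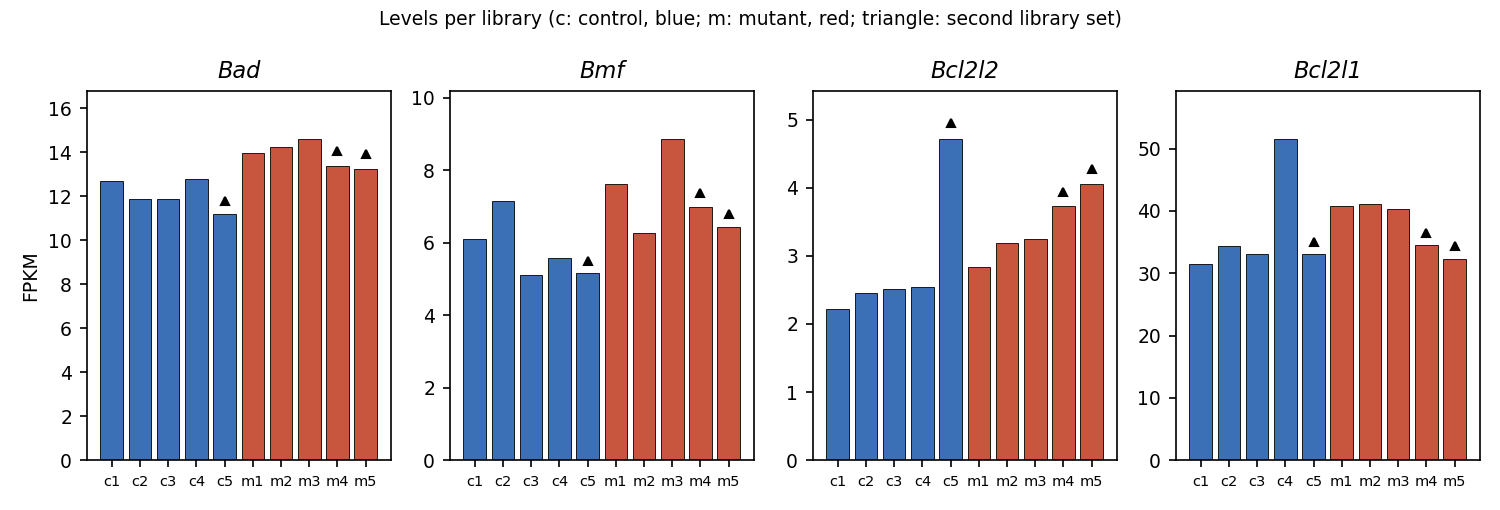
FPKM in each library for Bad, Bmf, Bcl2l2 and Bcl2l1, with controls in blue, mutants in red and triangles over the second library set (control 5, mutant 4 and mutant 5). All 5 mutants exceed the controls in Bad, Bcl2l2 is highest in the 3 libraries of the second set, and Bcl2l1 peaks in control 4 at 51.6 FPKM.

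Bak1, the effector among the members (ENSMUSG00000057789.14, chromosome 17, 27019810 to 27029009), gave groups of similar spread and level. Controls held 14.2, 10.3, 10.1, 14.03 and 13.1 FPKM and mutants 14.2, 10.6, 12.02, 15.96 and 12.4 FPKM. Both groups covered nearly the same range, with mutant 4 the highest. The log2 difference was 0.075 (95% interval -0.22 to 0.37; limma, adjusted p = 0.885). Its exons share 614 bases with Ggnbp1 on the opposite strand, which averaged 1.69 FPKM in controls and 2.20 FPKM in mutants.

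Bad was the one member whose groups were separate. Its protein is held inactive in the cytoplasm when survival kinases phosphorylate it, and the gene (ENSMUSG00000024959.14) lies on chromosome 19 from 6941861 to 6951899. Levels were 12.7, 11.9, 11.9, 12.8 and 11.2 FPKM in controls and 13.95, 14.2, 14.6, 13.4 and 13.2 FPKM in mutants. Each mutant stood above the highest control, and of all tested genes 1.52% were higher in mutants without overlap. The means were 12.1 ± 0.663 and 13.9 ± 0.576 FPKM (SD, n = 5; p = 0.00794, two-sided exact permutation), a log2 difference of 0.19 (SE 0.087; 95% interval -0.0034 to 0.38; limma, adjusted p = 0.576). The permutation p is not adjusted, and any gene with separate groups reaches it. Members other than Bad, Bmf and Hrk gave p = 0.159 to 0.952 by the same permutation test. The separation of Bad rests on the scale of the libraries: after median-ratio rescaling the groups of Bad overlapped, the log2 difference was 0.077 (adjusted p = 0.913), and 0.961% of all genes were higher without overlap. Gpr137 on the opposite strand, which shares 524 exonic bases with Bad, held 6.08 to 9.28 FPKM in control libraries and 6.84 to 9.45 FPKM in mutants, and the use of strand in the values is not known.

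Bmf, a BH3-only protein that is tethered to the actin cytoskeleton in healthy cells, had the largest difference of the tested members. The gene (ENSMUSG00000040093.15) lies on chromosome 2 from 118528757 to 118549687. Controls held 6.11, 7.14, 5.12, 5.57 and 5.18 FPKM and mutants 7.62, 6.28, 8.87, 6.99 and 6.43 FPKM. Control 2 lay within the mutant range, and the other 4 controls lay below all mutants. The means were 5.82 ± 0.836 and 7.24 ± 1.06 FPKM (SD, n = 5; p = 0.0476, two-sided exact permutation), a log2 difference of 0.27 (SE 0.12; 95% interval 0.0029 to 0.54; limma, unadjusted p = 0.0479, adjusted p = 0.568). Relative to all genes, after median-ratio rescaling, it was 0.17 (adjusted p = 0.838), and 0.30 with a term for the library set (adjusted p = 0.312).

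Bid links the death receptors to the mitochondrion once caspase 8 has cleaved it, and its gene (ENSMUSG00000004446.12) lies on chromosome 6 from 120891930 to 120916853. Levels were 3.36, 2.89, 3.57, 4.06 and 4.72 FPKM in controls and 3.92, 4.59, 4.16, 4.25 and 4.29 FPKM in mutants. Controls 1 to 3 lay below each mutant, and control 5 lay above each of them. The log2 difference was 0.16 (95% interval -0.096 to 0.42; limma, adjusted p = 0.705). The last exons of Bid share 628 bases with those of its relative Bcl2l13 on the other strand, at 5.58 to 7.17 FPKM over all libraries, so without knowledge of strand the level of Bid is uncertain.

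Bcl2l11, which encodes Bim, a direct activator of the effectors that neurons raise when deprived of growth factors, gave a difference close to 0. The gene (ENSMUSG00000027381.16) lies on chromosome 2 from 128126038 to 128162547. Controls held 2.49, 3.24, 3.07, 3.87 and 4.94 FPKM and mutants 3.70, 3.25, 3.45, 3.19 and 3.87 FPKM. The mutants lay inside the wider range of the controls. The log2 difference was 0.010 (95% interval -0.30 to 0.32; limma, adjusted p = 0.989).

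Hrk, a BH3-only gene of dying neurons, was scarce. The gene (ENSMUSG00000046607.6) lies on chromosome 5 from 118164648 to 118189478. Controls held 0.261, 0.226, 0.335, 0.290 and 0.464 FPKM and mutants 0.578, 0.455, 0.424, 0.299 and 0.384 FPKM. The groups overlapped, since control 5 exceeded all mutants but 1. These levels stand for an estimated 15 to 50 fragments per library over a transcript of 5382 bases, of which 92 codons encode the protein. The means, 0.315 ± 0.0923 and 0.428 ± 0.102 FPKM (SD, n = 5), gave p = 0.119 by a two-sided exact permutation test, and without a filter on low values Hrk had a log2 difference of 0.12 (limma, adjusted p = 0.772).

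**Figure D3:**
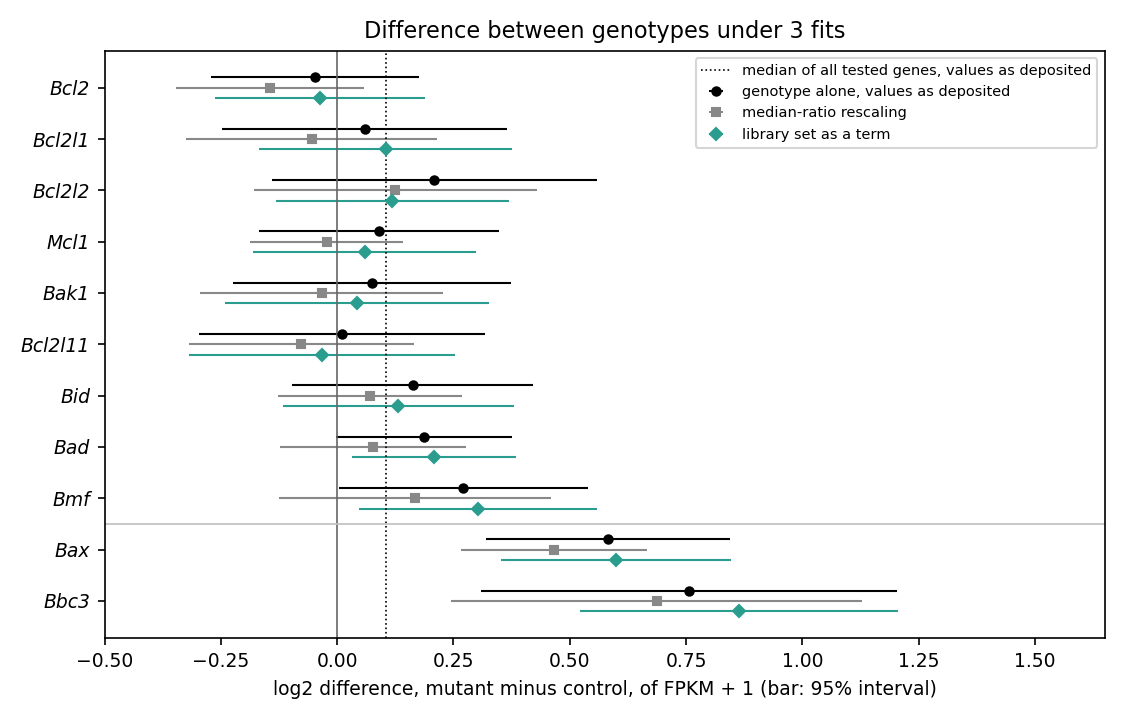
Log2 difference of FPKM + 1, mutant minus control, with 95% intervals, for the 9 tested members and for Bax and Bbc3, under 3 fits. As deposited, the intervals of the members lie between -0.30 and 0.56, the dotted line marks the median of all tested genes at 0.11, and the intervals of Bax and Bbc3 lie above 0 in all 3 fits.

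The sign of the smaller differences depended on how the libraries were scaled. Median-ratio rescaling and quantile normalization turned the log2 differences of Bcl2l1, Mcl1, Bak1 and Bcl2l11 below 0, where they lay between -0.12 and -0.0098, and Bcl2 lay below 0 under both scalings and as deposited. Bcl2l2, Bid, Bad and Bmf stayed above 0 under both. The spread of the members was smaller among mutants than among controls for 9 of 10 genes, by coefficient of variation, and for 68.6% of all tested genes. For Mcl1 it was 17.1% in controls and 5.27% in mutants, and for Bcl2l11 26.4% and 8.33%. Without controls 4 and 5, it was smaller in mutants for 6 of 10 members and for 4261 of the 13522 genes. That comparison set controls of the first library set alone against mutants of both sets, in groups of unequal size.

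The p53-induced relatives gave larger differences. Bax, the other effector, held 37.9, 42.8, 40.9, 55.8 and 47.8 FPKM in controls and 67.0, 76.6, 71.5, 62.1 and 60.4 FPKM in mutants, without overlap (log2 difference 0.58; limma, adjusted p = 0.123, and 0.0391 with a term for the library set). Bbc3, which encodes Puma, held 0.778 to 1.18 FPKM in control libraries and 1.04 to 3.21 FPKM in mutants (log2 difference 0.76; adjusted p = 0.296, and 0.0345 with the term). Pmaip1, which encodes Noxa, fell just short of the filter on low values, at 0.258 to 0.947 FPKM in controls and 1.00 to 3.69 FPKM in mutants. Bax and Bbc3 were included because earlier results of these libraries showed them higher.

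The ratio of Bax to each member within a library, which a single scale factor per library does not alter, is given as a description with no test, because Bax was already known to be higher in these libraries. The mean log2 ratio was higher in mutants for all 10 members, by 0.14 to 0.65. A higher ratio follows for any gene whose own difference is smaller than that of Bax (0.58), so this count is no separate result. Its groups did not overlap for Bcl2 (0.65), Bcl2l11 (0.57), Bcl2l1 (0.53), Mcl1 (0.50) and Bad (0.39). The same held for 27.5% of the other 13521 tested genes when each was set against Bax. For Bak1 (0.51), Bid (0.39), Bcl2l2 (0.31), Bmf (0.28) and Hrk (0.14) the ratios of the groups overlapped. The 10 ratios share their numerator and are not independent of each other.

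Sums by role put the members on the scale of each library. The 4 anti-apoptotic genes summed to 56.8, 59.0, 56.6, 82.7 and 66.0 FPKM in controls and 67.9, 70.9, 68.9, 65.0 and 61.2 FPKM in mutants, which overlapped. Bcl2l1 made up 50.05 to 62.4% of that sum in controls and 52.9 to 60.0% in mutants, and Mcl1 28.7 to 35.6% and 28.9 to 34.3%. The 5 BH3-only genes summed to 24.0 to 26.5 FPKM in controls and 28.1 to 31.5 FPKM in mutants, without overlap and as deposited, and Bad made up 47.5 and 47.4% of them on average. The sum was not computed after median-ratio rescaling, under which the groups of Bad overlapped. Per unit of anti-apoptotic RNA the BH3-only sum was 0.321 to 0.439 in controls and 0.406 to 0.461 in mutants, with overlap. Bax per unit of anti-apoptotic RNA was 0.667, 0.726, 0.723, 0.675 and 0.723 in controls and 0.987, 1.08, 1.04, 0.956 and 0.987 in mutants. Control 4, high in Bcl2l1, was high in Bax as well, and its ratio of 0.675 lay among those of the other controls. These sums are given as values, since no test was made on scores over the members.

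**Figure D4:**
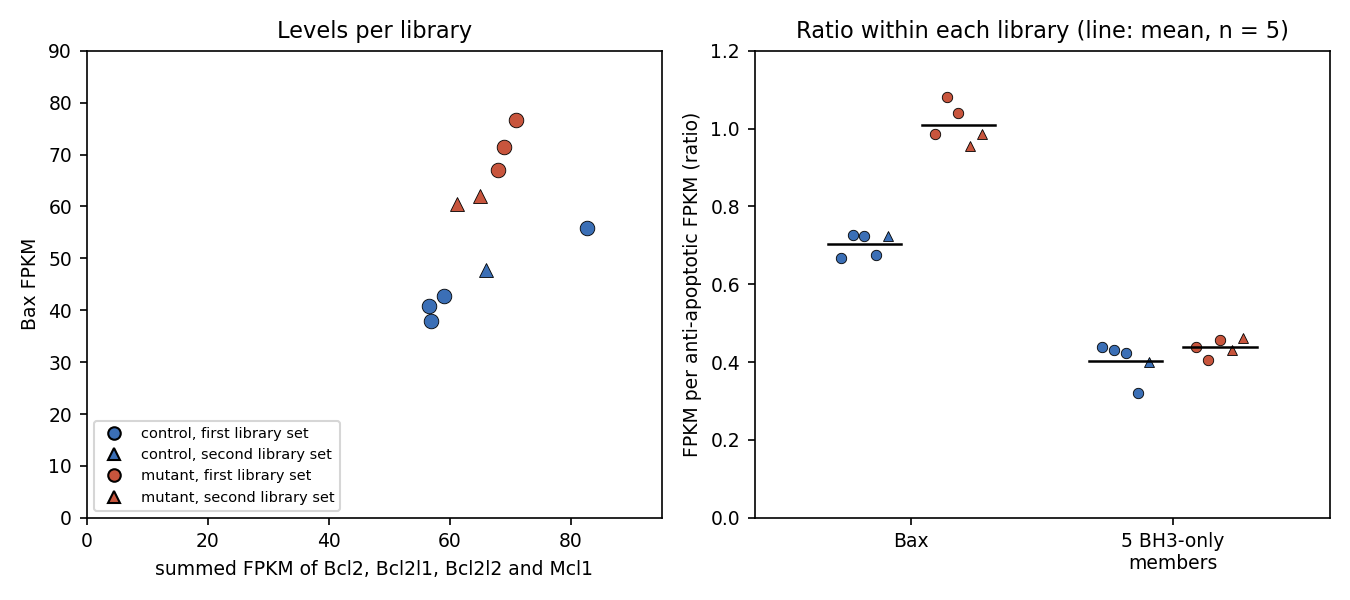
Left, Bax FPKM against the summed FPKM of the 4 anti-apoptotic genes, 1 point per library; right, the ratio of Bax and of the 5 BH3-only genes to that sum in each library, with group means of 5 libraries. The Bax ratio lies at 0.667 to 0.726 in controls and 0.956 to 1.08 in mutants, and the BH3-only ratios of the groups overlap.

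The 5 remaining relatives that could be tested gave differences near 0. Of 12 further genes with homology to Bcl2, 5 reached the filter and 0 passed, where 0.155% of all tested genes did. All 5 lay below the median difference of all genes, at log2 differences of -0.030 to 0.044. Bnip3l and Bnip3, which act in the removal of mitochondria, held 73.0 ± 5.63 and 28.6 ± 3.78 FPKM in control libraries and 74.6 ± 9.69 and 28.9 ± 10.1 FPKM in mutants (SD, n = 5). Bcl2l12 lay at 13.7 and 13.6 FPKM, Bok, a further effector-like protein, at 11.9 and 12.2 FPKM, and Bcl2l13 at 6.29 and 6.27 FPKM. Bik, Bcl2l10, Bcl2l14, Bcl2l15, Bcl2a1a and Bcl2a1d stayed below 1 FPKM in all libraries. Bcl2a1b, a blood cell gene with near-identical copies that can share reads, was listed at 0 in 4 controls, at 0.0720 FPKM in control 3 and at 0.0744 to 0.621 FPKM in mutants. Its mutants lay above all controls as deposited, and the groups overlapped after median-ratio rescaling. Summed microglial and macrophage markers reached 20.5 to 48.0 FPKM in control libraries and 31.0 to 96.9 FPKM in mutants, with 7 of 8 markers at 1 FPKM or more in all libraries, and their part in this level was not tested.

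Partners of the members were read from 7 lists, and 0 of 52 tested genes passed the threshold, with 5 at an unadjusted p under 0.05 (limma). In the same fit 21 of all 13522 tested genes passed, and 1185 had an unadjusted p under 0.05. The median log2 difference of the partners was 0.074, against 0.11 for all genes, and 21 of 52 lay above that median. Among genes that control the transcription of BH3-only genes (10 tested, median 0.11) the kinase genes Mapk8 and Mapk9, which drive Bim and Hrk through Jun, stood first. Mapk8 averaged 48.0 ± 6.71 in controls and 66.1 ± 8.15 FPKM in mutants, without overlap as deposited or after median-ratio rescaling (SD, n = 5; log2 difference 0.46, adjusted p = 0.290), and Mapk9 averaged 8.36 and 11.3 FPKM (0.41, adjusted p = 0.463). Genes higher in mutants without overlap made up 1.52% of all tested genes as deposited and 0.961% after that rescaling. In the list of Mcl1 turnover (6 tested, median 0.14) Fbxw7, part of a ubiquitin ligase for Mcl1, lay at 6.43 and 8.53 FPKM (0.37, adjusted p = 0.357), and Usp9x, which removes ubiquitin from it, at 49.6 and 56.9 FPKM. In the arm that cleaves Bid (4 tested, median 0.15) Cflar, which restrains caspase 8, lay at 4.85 and 6.32 FPKM (adjusted p = 0.457), with groups that were apart as deposited and overlapped after median-ratio rescaling, and Casp8 at 1.59 and 1.98 FPKM. Fas and Tnfrsf10b of this list did not reach the filter. Fas held 0 to 0.0481 FPKM in controls and 0.110 to 0.438 FPKM in mutants, apart as deposited and after median-ratio rescaling. Without a filter 1.22% of genes were higher in mutants without overlap as deposited. Tnfrsf10b averaged 0.738 FPKM in controls and 1.71 FPKM in mutants, with overlap.

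The other 4 partner lists lay below the median of all genes. Outer membrane partners had a median of 0.015 (7 tested), with Mtch2, the membrane receptor of cleaved Bid, at 37.3 and 43.1 FPKM and Tmbim6 at 23.9 and 26.8 FPKM in controls and mutants. Genes downstream of membrane opening had a median of 0.041 (10 tested), with Apaf1, the scaffold of the apoptosome, at 14.1 and 16.4 FPKM and Diablo, which counters caspase inhibitors, at 43.2 and 46.4 FPKM. Proteins that hold BH3-only members in the cytoplasm had a median of 0.031 (8 tested), with Ywhah at 32.5 and 37.8 FPKM and Ywhae at 145.7 and 157.2 FPKM. Kinases that act on Bad had a median of 0.051 (7 tested), with Rps6kb1 at 21.2 and 24.1 FPKM. The smallest adjusted p in these 4 lists was 0.611 (limma).

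Markers of other cell types differed between libraries beside these values. With the library set term, 2 of 7 tested microglial and macrophage markers and 1 of 9 excitatory neuron markers passed, higher in mutants. Their smallest adjusted p-values were 0.0089 and 0.023 (limma), in a fit where 0.547% of all genes passed. With genotype alone, 0 of both lists passed. The other marker lists held no gene that passed in either fit. Summed excitatory neuron markers, all 9 at 1 FPKM or more in each library, reached 298 to 456 FPKM in control libraries and 376 to 571 FPKM in mutants, and all 9 lay above the median difference of all genes. Endothelial markers summed to 28.1 to 47.3 and 36.4 to 59.8 FPKM, and mesenchymal and pericyte markers to 62.3 to 148.6 and 75.9 to 183 FPKM. Radial glial markers summed to 586 to 753 and 721 to 783 FPKM. The highest control sum of excitatory neuron markers was that of control 4. The other controls reached 298 to 354 FPKM, below all mutants. With control 4 left out, 3.71% of all tested genes were higher in mutants without overlap, against 1.52% with all libraries. Control 4 held the highest Tubb3 of all libraries, at 168 FPKM, but the lowest Neurod6 and Neurod2, at 9.24 and 6.21 FPKM. Its Tbr1, at 14.1 FPKM, was the highest of the controls, so the sum does not stand for every marker in that library. The part of any of these marker sets in the levels of Bad, Bmf or the other members was not tested.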

How the data were processed

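For each of 5 control and 5 mutant samples the authors deposited FPKM values against gene symbols, from total RNA. The submitters' processing notes name HISAT2 and GRCm38 (mm10). Not given in the sources used here are the program and annotation behind the FPKM values and whether strand was used. Groups came from the sample titles.

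The test was run on log2(FPKM + 1) by limma 3.58.1 (R 4.3.3) with intensity trend, robust moderation and genotype as the single term, over the 13522 genes that reached 1 FPKM in 5 libraries or more. P-values were adjusted over all of them (Benjamini-Hochberg, threshold 0.05). Single values were compared by exact two-sided permutation over 252 splits. The procedure was tested on simulated data. Alternatives are given in the closing section. Depth was estimated only roughly, from the FPKM step of 1 fragment, and no counting intervals were computed.

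Gene models and sequences came from GENCODE M21 (GRCm38), read with Biopython 1.88; all 10 members matched by symbol. Named were all members, all family relatives, and from each partner list the genes past the threshold, at most 4, or else the 2 with the smallest p; 1 gene that this rule names is not reported here. The partner lists were outer membrane partners, genes downstream of membrane opening, proteins that hold BH3-only members, transcription control of BH3-only genes, Mcl1 turnover, kinases that act on Bad and the death receptor arm. Members, lists and the library sets were chosen with earlier results of these data known. The ratios to Bax were added after the values were seen.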

Additional observations from a re-analysis of the deposited data

Results flagged for a closer look

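A library stood far from the other 4 of its group in 2 of 26 groups examined (10 members and the 3 p53-induced relatives, in controls and in mutants), where chance alone flags about 1 group in 20. Bcl2l1 was 51.6 FPKM in control 4, with the other controls at 31.4 to 34.3 FPKM. Without that library its log2 difference was 0.19 in place of 0.059 (limma, adjusted p = 0.502). Bcl2l2 was 4.72 FPKM in control 5, with the other controls at 2.21 to 2.55 FPKM. Without that library its log2 difference was 0.36 in place of 0.21 (limma, adjusted p = 0.137). Mutants 4 and 5, of the same library set as control 5, held Bcl2l2 at 3.74 and 4.05 FPKM.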

How the results depend on the processing

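No member passed the threshold under the 9 planned settings, the 1 added after seeing the data (median-ratio rescaling and library set as a term) or the 10 fits that each left out a library. Of all genes, 21 passed as deposited (12 higher, 9 lower), 33 with median-ratio rescaling (12 and 21), 35 with quantile normalization (13 and 22), 74 with the library set as a term, 101 in the first library set alone, 91 with rescaling and that term, 11 without trend and robust moderation and 2 without a filter. With the replicate number as a block term, 14 genes and 0 members passed. Same-numbered libraries deviated together in part only (correlations -0.107 to 0.521, highest with the own number for 2 of 5), so the numbers were not taken to pair the samples. Leaving out single libraries gave from 2 genes (without control 1, control 2, mutant 2 or mutant 3) to 79 (without control 5), with 4, 9, 10 and 11 without control 3, mutant 1, mutant 5 and control 4.

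Members whose groups did not overlap numbered 1 as deposited, 0 with median-ratio rescaling, with quantile normalization and with rescaling and the set term, 2 in the first set alone, and 1 to 2 with single libraries left out (2 without control 2, where Bmf joined Bad, or control 5). Of all genes, 1.52% were higher without overlap as deposited, 16.7% in the first set alone, 1.8% without control 2 and 8.6% without control 5. The following log2 differences changed sign. With median-ratio rescaling Bcl2l1 was -0.055, Mcl1 -0.023, Bak1 -0.034, Bcl2l11 -0.077, Bok -0.067, Bcl2l12 -0.079, Bnip3l -0.091 and Diablo -0.0090. With quantile normalization Bcl2l1 was -0.019, Mcl1 -0.0098, Bak1 -0.038, Bcl2l11 -0.12, Bok -0.061, Bcl2l12 -0.079 and Bnip3l -0.053. With the set term Bcl2l11 was -0.033 and Bcl2l12 -0.061. With rescaling and that term Mcl1 was -0.037, Bak1 -0.051, Bcl2l11 -0.11, Bcl2l12 -0.15, Bnip3l -0.085, Diablo -0.030, Ywhae -0.041 and Rps6kb1 -0.028. In the first set alone Bcl2 was 0.011, Bcl2l13 0.059 and Bnip3 0.13. With single libraries left out Bcl2l11 ran from -0.077 to 0.11, Bok from -0.10 to 0.13, Bcl2l12 from -0.087 to 0.19, Bcl2l13 from -0.045 to 0.027, Bnip3 from -0.21 to 0.051 and Bnip3l from -0.047 to 0.066. The cause of these shifts was not tested. Of 180 values of members under alternatives, 162 kept their direction and their side of the threshold and 18 changed sign. At FPKM of a few units or less, as in Hrk, the number of fragments limits what could be detected.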
